A study of Mus musculus with 2 samples.

Results

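The cells described here are immediate-early-high progenitor cells of mouse neurospheres, the 250 cells with the largest share of transcripts from Fos, Egr1, Junb, Ier2 and Dusp1. They were selected on the measured values of these 5 genes. They were drawn from 3055 cells that passed the filters, out of 4000 barcodes in the deposited table. A cell passed with at least 500 detected genes, at least 2000 unique molecular identifiers (UMIs, each counted as 1 captured transcript) and at most 10% of UMIs from mitochondrially encoded genes. They are set against the 500 cells with the smallest share, called the lowest cells, where equal shares were ranked by more UMIs. The 5 genes that made the choice are given as a description only and left out of every total, list and ratio.

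The study grew primary neurospheres from CD1 mouse embryos, starting from the lateral ventricle walls of the forebrain, to obtain primitive neural stem cells. Leukemia inhibitory factor (LIF, 10 ng/mL) was present in the serum-free medium, and the labels also name an additive, EFH, that they do not spell out. Both labelled samples had this genotype and treatment, so members and lowest cells share them, and the study has no untreated group here. The spheres were dissociated and captured by Drop-seq, which tags each transcript of a droplet with a cell barcode and a UMI, although the series text names the assay as single-nucleus sequencing.

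Immediate early genes are transcribed within minutes of a growth factor, stress or depolarising stimulus, from factors already present in the cell, with no need for new protein. Many are transcription factors of the FOS, JUN, EGR and KLF families, and many are reached through the RAS, RAF, MEK and ERK kinase cascade. The same cascade switches on its own brakes, among them the dual specificity phosphatases (DUSP) and the Sprouty (SPRY) proteins. Tissue dissociation is also known to induce these genes in many tissues.

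Nothing in the table maps a barcode to either labelled sample, so both were analysed as 1 pooled sample. Cells are not replicates, so no p-value is given, and each interval is an exact 95% interval for counting error only. Members held 2001 to 11849 UMIs with a median of 3751, against 4047 to 25591 with a median of 5597 in the lowest cells. Because of this gap every cell was thinned at random to 2000 UMIs. Results are also given against 500 depth-matched cells, 2 for each member, which had no UMI of the 5 genes and a median of 3749.5 UMIs, of which 222 were also among the lowest cells. The median mitochondrial share was 3.01% in members and 2.71% in the lowest cells, and ribosomal protein genes took a median of 8.53% and 8.88%. Malat1, a nuclear RNA, stood at 3931 CPM (counts per 1000000 UMIs) in members and 2726 in the lowest cells, and its part in the results was not tested. The table holds no separate cell type that should lack immediate early genes, so the level that free RNA gives was not measured.

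The rule genes themselves were sparse. A member carried 3 to 32 of their UMIs, with a median of 6, at a share of 1.15 to 5.58 per 1000 UMIs and a median share of 1.54 per 1000. The highest member had 12 of its 2150 UMIs in these genes. At the limit, the 250th cell had 4 of 3494 UMIs, or 1.145 per 1000, and the first cell left out had 10 of 8752, or 1.143 per 1000. There was no gap in the shares at the limit.

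**Figure D1:**
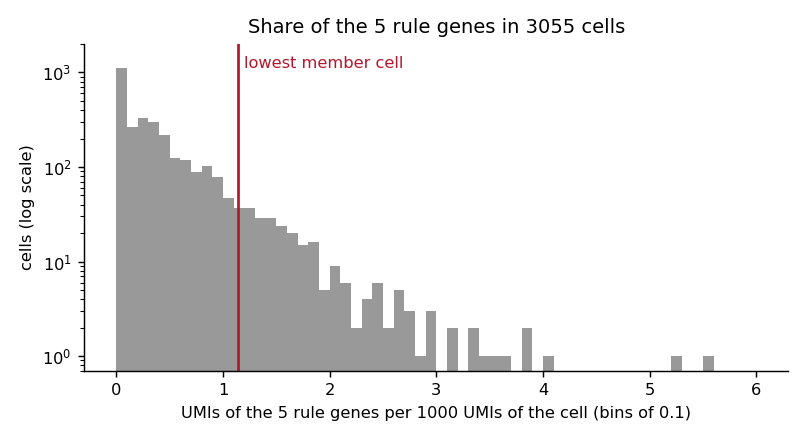
Number of cells (log scale) by the share of the 5 rule genes, in UMIs per 1000 UMIs of the cell, for the 3055 cells. The line marks the lowest member at 1.145 per 1000, and the members lie to its right, with no gap at the line and few cells above 3 per 1000.

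Egr1, a zinc finger transcription factor, gave 1253 of the rule UMIs of the members (67.2%) and was detected in 248 members. Ier2, a small nuclear protein, gave 294 (15.8%), and Fos, a subunit of the AP-1 factor, gave 152 (8.15%). Junb, its JUN-family partner, gave 101 (5.42%), and Dusp1, a phosphatase that inactivates MAP kinases, gave 64 (3.43%). Thus the choice rested mainly on Egr1. Of the 250 members, 47 showed UMIs of 1 rule gene, 87 of 2, 80 of 3, 27 of 4 and 9 of all 5. All 500 lowest cells had 0 of these UMIs, as had 1079 of the 3055 cells.

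Because so few molecules made the choice, it was repeated on a random 50% of each cell's UMIs and read in the other 50%. The 250 cells chosen in this way had the rule genes at 1127 CPM in the UMIs left (95% interval 1041 to 1218), against 161 (143 to 180) in the 500 lowest cells and 366 in all cells. Of these 250 cells, 164 were members under the full rule. These values describe the rule genes and support no other result.

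Among 5130 genes with at least 50 UMIs in members and lowest cells together, a gene was called higher when the whole interval of its ratio lay above 1.5, and lower when it lay below the inverse of 1.5. By this rule 18 genes rose (0.351% of those tested) and 15 fell (0.292%). Against the depth-matched cells 11 of 5168 genes rose (0.213%) and 11 fell (0.213%), of which 8 and 8 were shared with the first comparison. The median ratio of all tested genes was 0.998. Of the 18 higher genes, 7 stayed past the limit in 2 other random thinnings and without thinning, and these were Arc, Klf10, Rasl11a, Ttyh1, Dusp6, Ier3 and Bhlhe40. Of the 15 lower genes, Cdc20, Ube2c, Ccnb1, Prr11 and Aurka did so, 5 in all.

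Other immediate early genes were higher in the members. Together the 58 listed genes in the table, none of them a rule gene, had 3590 CPM in members, 2342 in depth-matched cells and 2181 in the lowest cells. The ratio was 1.65 to the lowest cells (1.54 to 1.75) and 1.53 to the depth-matched cells (1.44 to 1.63). Of the 18 listed genes with enough UMIs, 4 rose, where 0.351% of all tested genes rose, and 0 fell. A ratio above 1 was found in 16 of the 18, and the median ratio was 1.58, against 0.998 over all tested genes. The 40 listed genes with too few UMIs to be called singly had 451 CPM together in members and 295 in the lowest cells, a ratio of 1.53 (1.28 to 1.82).

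Arc, an effector gene known from neurons that acts at synapses (GRCm38 chromosome 15, 74669083 to 74672570, minus strand), had 43 UMIs in members, 16 in depth-matched cells and 12 in the lowest cells. Its UMIs came from 33 members, with at most 6 in 1 cell. The ratio to the lowest cells was 7.18 (3.72 to 14.96), the largest of all called genes. Klf10, a Kruppel-like repressor induced by TGF-beta (chromosome 15, 38291463 to 38300706, minus strand), had 153 UMIs in 97 members, against 118 in depth-matched and 109 in the lowest cells. Its ratio was 2.81 (2.19 to 3.63) to the lowest cells and 2.60 (2.03 to 3.33) to the depth-matched cells. Both genes thus stayed past the limit under either choice of comparison cells.

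Ier3, which modulates ERK signalling and cell survival (chromosome 17, 35821684 to 35822923, plus strand), had 51 UMIs in members and 35 in the lowest cells, a ratio of 2.92 (1.86 to 4.63). Jun, the AP-1 subunit that pairs with Fos (chromosome 4, 95049034 to 95052222, minus strand), had 204 UMIs in members and 203 in the lowest cells, which are more cells, and its ratio was 2.01 (1.65 to 2.46). In a second random thinning the interval of Jun reached below the limit. These 4 genes held for the depth-matched cells as well, where Phlda1, a regulator of receptor signalling, also passed at 1.96 (1.51 to 2.53).

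The other tested genes of the list did not pass the limit against the lowest cells. Phlda1 stood at 1.93 (1.49 to 2.49), the mRNA-decay factor Zfp36l1 at 1.90 (1.41 to 2.56), the growth regulator Myc at 1.64 (1.22 to 2.20) and Klf6 at 1.63 (1.24 to 2.12). Btg2, which restrains proliferation, stood at 1.62 (1.25 to 2.10). Intervals of these 5 genes lay above 1 but reached below 1.5. Nearest to no difference or below it were Jund at 1.18 (0.86 to 1.61), Id1 at 0.96 (0.58 to 1.57) and Ier5 at 0.78 (0.39 to 1.48). The list therefore moved unevenly.

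Several textbook members of the group were almost absent. Fosb had 1 UMI in members and 0 in the lowest cells, Atf3 had 0 and 3, Nr4a2 had 0 and 5, and Npas4 had 0 and 1. Egr2, a close relative of Egr1, had 11 UMIs in 9 members and 0 in both the depth-matched and the lowest cells. Its level of 22.0 CPM in members was 7.35-fold that of a floor of 3 UMIs over all lowest cells. This value leaves out the counting error of the 11 UMIs. Egr4 had 21 and 14 UMIs, Trib1 had 21 and 13, and Nr4a1 had 8 and 5, in members and in the lowest cells.

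Genes that ERK signalling induces as targets or as its own brakes also stood higher in members as a list. The 30 listed genes had 4622 CPM in members, 3311 in depth-matched cells and 3345 in the lowest cells, ratios of 1.40 (1.32 to 1.47) and 1.38 (1.31 to 1.46). Of 14 tested, 3 rose, where 0.351% of all tested genes rose, and 0 fell. A ratio above 1 was found in 13 of the 14, and in 2562 of all 5130 tested genes. Ccnd1, the cyclin of G1 progression, gave 1304 of the 2307 UMIs of the list in members, with a ratio of 1.23 (1.15 to 1.32). Without it the list stood at 2009 CPM in members and 1226 in the lowest cells, a ratio of 1.64 (1.51 to 1.78).

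The 3 higher genes were all brakes of the cascade. Dusp6, a cytoplasmic phosphatase of ERK (chromosome 10, 99263231 to 99267489, plus strand), had 167 UMIs in 104 members, against 162 in depth-matched and 146 in the lowest cells. Its ratio was 2.29 (1.82 to 2.88) to the lowest cells and 2.07 (1.65 to 2.58) to the depth-matched cells. Spry4, an inhibitor of receptor tyrosine kinase signalling (chromosome 18, 38586247 to 38601415, minus strand), had 97 UMIs in members and 86 in the lowest cells, a ratio of 2.26 (1.67 to 3.06). Spry2, of the same family (chromosome 14, 105891947 to 105896819, minus strand), had 196 and 203 UMIs, a ratio of 1.93 (1.58 to 2.37). Neither Sprouty gene passed in 2 other random thinnings, and against the depth-matched cells Spry2 passed at 2.05 (1.67 to 2.51) while Spry4 stood at 1.98 (1.48 to 2.65).

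Hbegf, a ligand of the EGF receptor, stood at 1.82 (1.47 to 2.24) against the lowest cells and passed against the depth-matched cells at 1.99 (1.61 to 2.47). Up to 17 of its 177 UMIs in members lay in 1 cell. Etv4 and Etv5, transcription factors also used as readouts of FGF and ERK signalling, stood at 1.04 (0.64 to 1.65) and 1.002 (0.65 to 1.52). Etv1, a further ETV factor, stood at 1.82, while the brakes Spry1, Spred1 and Spred2 stood at 1.19, 1.15 and 1.27. Ratios thus varied both among the brakes and among the ETV factors, and the reason was not tested.

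**Figure D2:**
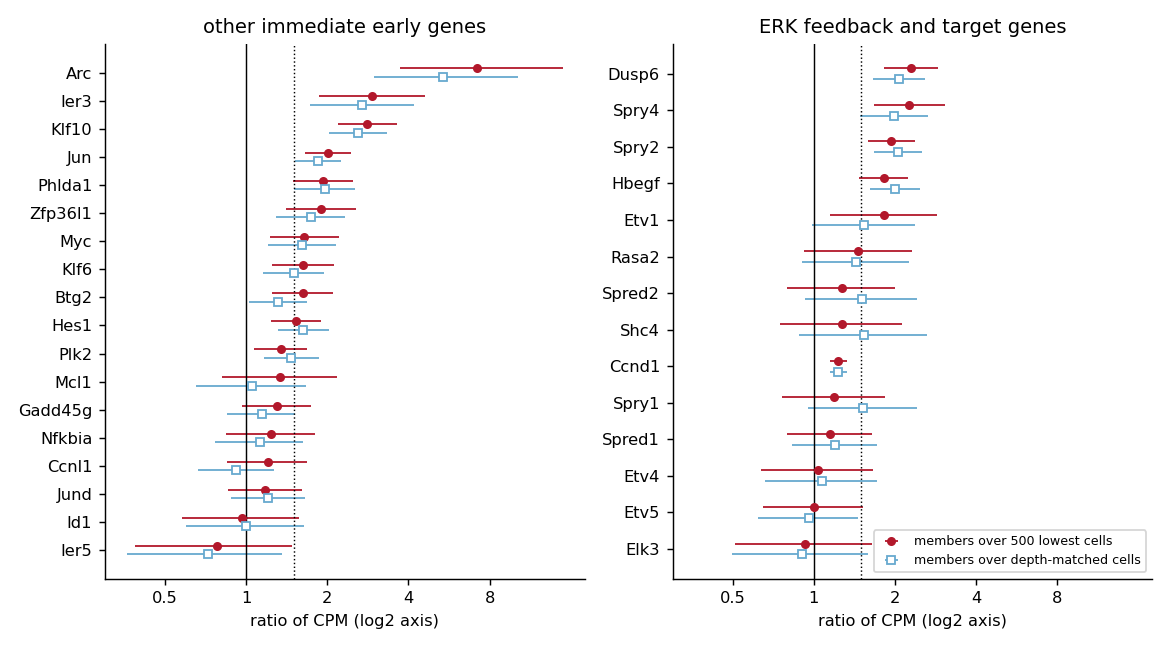
Ratio of CPM (log2 axis) in members over the 500 lowest cells (filled circles) and over depth-matched cells (open squares) for the tested genes of both lists, with exact 95% counting intervals; the dotted line is the limit of 1.5. Arc lies farthest right at 7.18, and Klf10, Ier3, Jun, Dusp6, Spry4 and Spry2 have intervals wholly above the limit against the lowest cells.

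Promoter windows, from 250 bases before to 50 bases after a gene's start (RefSeq, GRCm38.p6), were searched on both strands for 4 motifs. These were the CArG box bound by the serum response factor SRF, the cAMP response element CRE (TGACGTCA), the AP-1 site (TGANTCA) and the ETS core (CCGGAA). Of 62 windows of 43 immediate early genes, the CArG box was in 6 windows (9.68%), against 1.63% of all 32851 windows. All 6 were of Egr2, Srf or Zfp36. The CRE was in 6 (9.68%), against 1.79%. A gene can have more than 1 window. Counted by gene, the CArG box was in 3 of 43, against 488 of 27025, and the CRE in 6, against 549. The AP-1 site was in 3 of the 62 windows (4.84%), against 7.81% of all windows, and the ETS core in 9 (14.5%), against 14.9%. Of the 18 higher genes 11 had a window, and 1 of these, Spry2, held a motif, an ETS core 33 bases after the start. No window was searched for Arc, Klf10, Spry4, Bhlhe40, Enc1, Selm or Zfp462 among the higher genes, or for Egr1 and Ier2 among the rule genes. A match is a description and is not evidence of binding.

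The following stretches are shown because they hold these letters in a gene seen in members but in no lowest cell (Egr2, chr10:67537467-67537529, plus strand), in a rule gene (Dusp1, chr17:26508582-26508641, minus strand) and in tested genes of the list (Btg2, chr1:134079288-134079347, minus strand, and Plk2, chr13:110394956-110395015, plus strand). Each reads from 5′ to 3′ on the gene's strand. Capitals mark the CArG box and then the ETS core in Egr2, with the CArG box 72 bases before the start, and the CRE in the others, which starts 143, 166 and 62 bases before the start of Dusp1, Btg2 and Plk2.
Egr2: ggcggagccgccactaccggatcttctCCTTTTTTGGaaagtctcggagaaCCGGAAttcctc
Dusp1: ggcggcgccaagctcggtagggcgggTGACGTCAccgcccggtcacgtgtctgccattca
Btg2: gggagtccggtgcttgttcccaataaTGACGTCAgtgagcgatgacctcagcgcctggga
Plk2: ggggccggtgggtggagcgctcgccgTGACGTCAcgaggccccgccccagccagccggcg

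Per cell, the higher level was a shift of the whole distribution. At 2000 UMIs a member held 0 to 24 UMIs of the other immediate early genes with a median of 7, a depth-matched cell 0 to 19 with a median of 4, and a lowest cell 0 to 15 with a median of 4. The groups overlapped over most of their range, and 3 members had none. For the ERK list the median was 9 UMIs in members, 6 in depth-matched cells and 6 in the lowest cells.

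Groups of members had intervals that overlapped or met in these lists. In the 183 members where Egr1 gave most of the rule UMIs, the other immediate early genes stood at 3572 CPM (3381 to 3771). In the 67 other members they stood at 3640 (3324 to 3978). The ERK list stood at 4650 CPM (4432 to 4877) in the Egr1-led members and 4544 (4190 to 4921) in the other members. Members with 1 rule gene detected (47 cells) had 3132 CPM of the other immediate early genes (2785 to 3512), and those with at least 2 (203 cells) had 3696 (3511 to 3888).

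The level also followed the share outside the members, as a description. Cells were ordered by their share into those with no rule UMI (1079 cells), 4 near-equal groups of 431 or 432 cells, and the members. From the first group to the members the median depth before thinning was 3876, 6643.5, 4078.5, 4796, 4421 and 3751 UMIs. The part of this depth in the levels was not tested. The other immediate early genes stood at 2365, 2407, 2570, 2685, 3023 and 3590 CPM from the lowest group to the members. The ERK list stood at 3348, 3893, 4004, 3984, 4431 and 4622 CPM in the same order. No step set the members apart from the group just below them in the ERK list, where the intervals met.

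**Figure D3:**
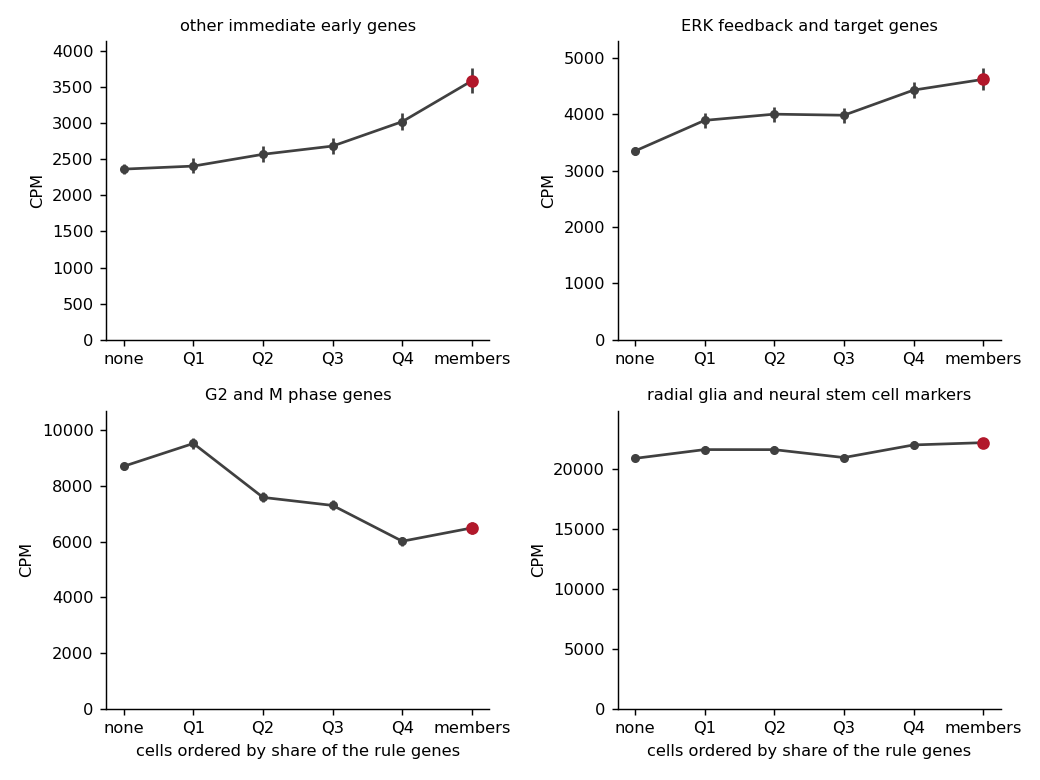
CPM of 4 gene lists (linear axes from 0, with exact 95% Poisson intervals) in cells with no rule UMI (none), in 4 groups of increasing share (Q1 to Q4) and in the members (red). The other immediate early genes lie between 2365 and 3590 and are highest in members, whereas G2 and M phase genes are lowest in Q4 at 6020 and stand at 6499 in members.

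Across all 3055 cells, the genes whose counts at equal depth ranked most like the share were Spry2 (Spearman's rho 0.12), Klf10 (0.11), Dusp6 (0.11), Ccnd1 (0.10), mt-Cytb (0.09) and Jun (0.09), among 1247 genes with at least 1000 UMIs. These coefficients are weak and share the sparse counts of each cell.

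Transcripts of G2 and M phase, the part of the cell cycle just before and during division, were lower in members. The 52 listed genes had 6499 CPM in members, 8976 in depth-matched cells and 10150 in the lowest cells. The ratio was 0.64 to the lowest cells (0.62 to 0.67) and 0.72 to the depth-matched cells (0.70 to 0.75). Of 51 tested genes 9 fell and 0 rose, where 0.292% of all tested genes fell, and the median ratio was 0.59. Against the depth-matched cells 7 of 50 fell, where 0.213% of all tested genes fell. The 431 cells with shares just below the members had 6020 CPM of the list (5857 to 6186), so the low level was not particular to members.

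Cdc20, an activator of the anaphase-promoting complex, had 64 UMIs in members, 346 in depth-matched cells and 362 in the lowest cells, a ratio of 0.35 (0.27 to 0.46) to the lowest cells. Ube2c, the ubiquitin-conjugating enzyme of the same complex, had 86, 396 and 473 UMIs in that order, a ratio of 0.36 (0.29 to 0.46). Ccnb1, the mitotic cyclin B1, had 42, 190 and 225 UMIs, a ratio of 0.37 (0.26 to 0.52). Aurka, Plk1, Cenpa, Birc5, Ect2 and Tubb4b, of the spindle, centromere and cell division, completed the 9. Top2a, a topoisomerase that untangles DNA, stood at 0.83 (0.70 to 0.99) against the lowest cells and 1.09 (0.91 to 1.31) against the depth-matched cells.

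The lower level lay in the number of cells with many mitotic transcripts. At equal depth, 26 of 250 members held at least 30 UMIs of the list (10.4%, exact binomial interval 6.91 to 14.9), against 131 of 500 depth-matched cells (26.2%, 22.4 to 30.3) and 156 of 500 lowest cells (31.2%, 27.2 to 35.5). This count of 30 was chosen after the distributions were seen. The median was 8 UMIs in members, 10 in depth-matched cells and 13 in the lowest cells, and the highest member reached 75. Among the members the level followed depth, although every cell was read at 2000 UMIs. The 125 deeper members had 8016 CPM of these genes (7669 to 8376), and the 125 shallower members had 4981 (4708 to 5266).

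**Figure D4:**
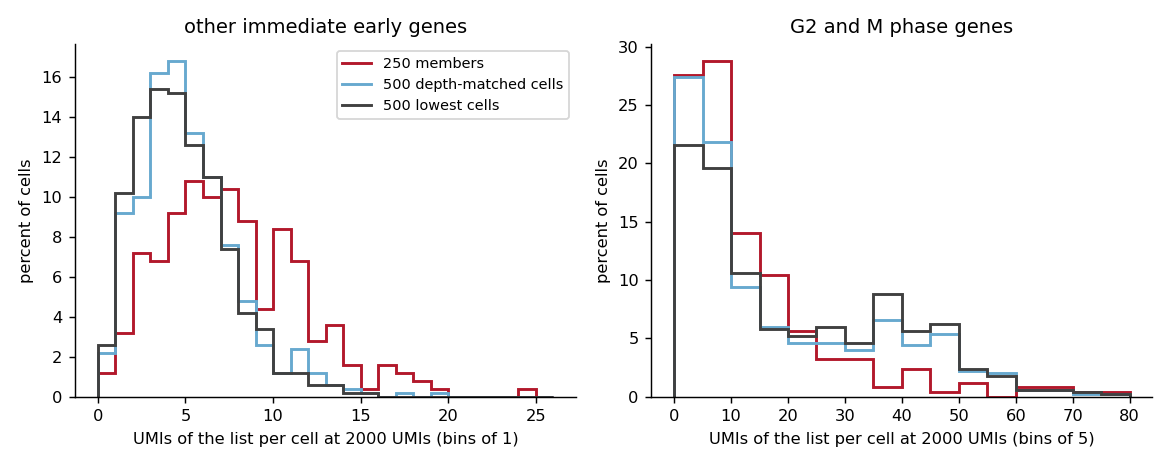
Percent of cells by UMIs per cell at 2000 UMIs, for the other immediate early genes (left) and the G2 and M phase genes (right), in 250 members, 500 depth-matched cells and 500 lowest cells. The members lie to the right of both other sets on the left side, with medians of 7, 4 and 4 UMIs, and fewer of them hold 30 or more G2 and M phase UMIs.

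S phase genes had 4365 CPM in members, 3683 in depth-matched cells and 4066 in the lowest cells, ratios of 1.19 (1.12 to 1.25) and 1.07 (1.02 to 1.13). None of the 36 tested genes passed the limit, by a rule under which 0.351% and 0.292% of all tested genes did. Ccne2, a cyclin of S phase entry, stood at 2.09 (1.36 to 3.22) against the lowest cells. Their direction was not stable, since 4 other settings gave ratios between 0.87 and 0.97. All S, G2 and M phase genes together stood at 0.76 (0.74 to 0.79) of the lowest cells and 0.86 (0.83 to 0.89) of the depth-matched cells.

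The immediate early genes were also compared among cells with at most 10 UMIs of the G2 and M list, an alternative added after the data were seen. This left 149 members, 258 depth-matched cells and 221 lowest cells. The ratio of the other immediate early genes was then 1.51 to the lowest cells and 1.47 to the depth-matched cells. Klf10, Dusp6, Jun, Spry2 and Spry4 still passed against the lowest cells, and Klf10 and Spry2 against the depth-matched cells. Arc was past the fold limit as well, but the number of its UMIs in these fewer cells was below the minimum of 50.

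The members carried the markers of radial glia and neural stem cells at levels close to those of the other cells. Radial glia and neural stem cell markers stood at 22240 CPM in members, 20607 in depth-matched cells and 21057 in the lowest cells, a ratio of 1.06 to the lowest cells (1.03 to 1.08). Fabp7, a brain lipid-binding protein, was at 1.005 (0.96 to 1.05), the filament gene Vim at 0.94 (0.89 to 1.003) and Sox2, a factor of stem cell identity, at 0.99 (0.84 to 1.16). Of the 18 tested markers 1 rose, where 0.351% of all tested genes rose. Ttyh1, a membrane protein of neural stem cells, was that gene, at 2.67 (2.04 to 3.49). It had 133 UMIs in members and 100 in the lowest cells. Against the depth-matched cells it stood at 1.84 (1.44 to 2.34) and did not pass. Intermediate progenitor markers stood at 1.32 (1.15 to 1.51) to the lowest cells and 1.18 (1.04 to 1.35) to the depth-matched cells. To the lowest cells, they stood at 1.65 (1.41 to 1.925) in the 125 shallower members. In the 125 deeper members they stood at 0.99 (0.82 to 1.198).

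Markers of neighbouring glial and neuronal states had ratios between 1.06 and 1.42 to the lowest cells. Astrocyte markers had a ratio of 1.42 (1.32 to 1.52) to the lowest cells and 1.26 (1.17 to 1.35) to the depth-matched cells. Of 9 tested genes 1 rose, where 0.351% of all tested genes rose. That gene, the lipid carrier Apoe, had 156 UMIs in members and 163 in the lowest cells, a ratio of 1.92 (1.53 to 2.40). In 1 member lay 16 of its UMIs. Of the 1251 UMIs of the list in members, Cst3 gave 365 in the 183 Egr1-led members and 209 in the 67 others. The astrocyte list was uneven among members. To the lowest cells it stood at 0.91 (0.77 to 1.075) in the 47 members with 1 rule gene detected. In the 203 members with at least 2 it stood at 1.535 (1.42 to 1.66). Oligodendrocyte precursor markers stood at 1.32 (1.23 to 1.41) with none of 5 past the limit. Of all tested genes 0.351% rose and 0.292% fell, so this count says little. Olig1 stood at 1.30 (1.19 to 1.42). Of the 1323 UMIs of this list in members, it gave 586 in the 183 Egr1-led members and 209 in the 67 others. Immature neuron markers stood at 1.06 (0.97 to 1.16) to the lowest cells and 0.89 (0.82 to 0.97) to the depth-matched cells.

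Defining markers of several other cell types were at or near 0. Of the 15 microglia and macrophage markers 5 were in the table, with 7 UMIs in members and 22 in the lowest cells. Among them Cx3cr1, P2ry12, Fcer1g and Mrc1 had 0 UMIs in members and in the lowest cells. Endothelial markers had 7 UMIs in members and 10 in the lowest cells, with Pecam1 and Kdr at 0 in both, and ependymal and choroid plexus markers had 22 and 38, with Ttr at 0. Mural markers had 32 and 42 UMIs, inhibitory neuron markers 20 and 32, and none of the 6 erythroid markers was in the table. The fibroblast list gave 708 and 1566 UMIs, nearly all from Igfbp2, which progenitors also express.

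Of the signalling lists, BMP and ID genes had the highest ratio, 1.61 (1.42 to 1.81) to the lowest cells and 1.51 (1.34 to 1.71) to the depth-matched cells. Of the 492 UMIs of this list in members, 306 were of Id3 alone. Id1 was counted among the immediate early genes instead, and stood at 0.96 to the lowest cells. Id3, an inhibitor of basic helix-loop-helix factors (chromosome 4, 136143497 to 136145755, plus strand), had 306 UMIs in members and 334 in the lowest cells, a ratio of 1.83 (1.57 to 2.15). It passed against the lowest cells, and stood at 1.72 (1.47 to 2.01) against the depth-matched cells. Id2 stood at 1.42 (1.07 to 1.88). The Notch list stood at 1.19 (1.04 to 1.36), with the ligand Dll3 at 3.20 (1.78 to 5.91) to the lowest cells but 1.46 (0.89 to 2.35) to the depth-matched cells, and the target Hes5 at 1.39 (0.93 to 2.04). LIF receptor, JAK and STAT genes had 162 UMIs in members and 335 in the lowest cells, a ratio of 0.97 (0.80 to 1.17). Growth factor receptor and ligand genes stood at 1.22 (1.04 to 1.44) to the lowest cells and 0.94 (0.81 to 1.103) to the depth-matched cells, so their direction turned with the comparison cells.

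Lists of other stress and metabolic responses had ratios between 0.81 and 1.16 to the lowest cells. Heat shock and chaperone genes stood at 0.90 of the lowest cells (0.87 to 0.94), and none of 15 tested genes passed the limit. Of all tested genes 0.351% rose and 0.292% fell. Calls missing from the small lists of this paragraph therefore say little about them. Amino acid response and unfolded protein genes stood at 0.81 (0.76 to 0.86) with none of 14 past it, among them the transcription factor Atf4 at 0.88 (0.71 to 1.099) and the chaperone Hsp90b1 at 0.76 (0.67 to 0.85). Antioxidant genes stood at 0.92 (0.87 to 0.97) and sterol synthesis genes at 0.87 (0.81 to 0.93), with no gene past the limit. The p53 targets stood at 1.16 (1.08 to 1.24), among them Cdkn1a, an inhibitor of cyclin-dependent kinases, at 1.16 (1.04 to 1.30). Hypoxia and glycolysis genes stood at 1.09 (1.03 to 1.15), and the mitophagy receptor Bnip3, which passed at 2.54 (1.53 to 4.24) to the lowest cells, stood at 1.15 (0.75 to 1.74) to the depth-matched cells.

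**Figure D5:**
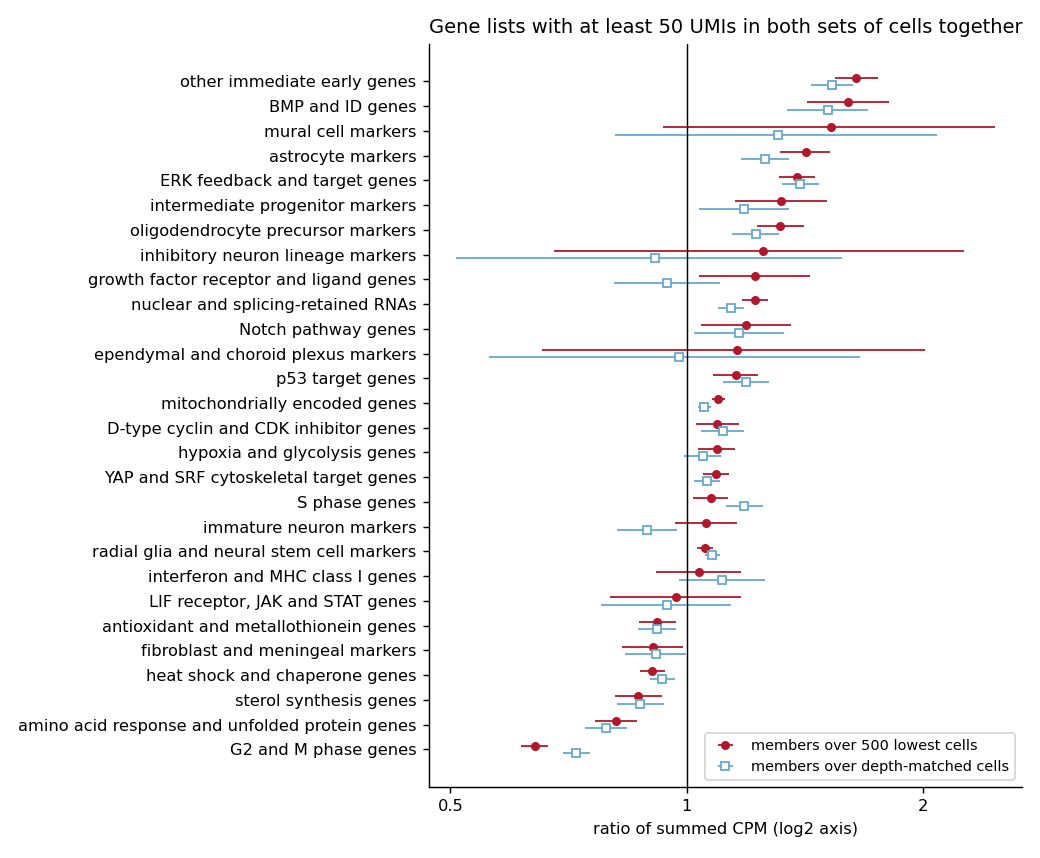
Ratio of summed CPM (log2 axis, exact 95% counting intervals) of each gene list with at least 50 UMIs in members and lowest cells together, in members over the 500 lowest cells (filled circles) and over the depth-matched cells (open squares). Among the lists drawn, other immediate early genes stand highest at 1.65 and 1.53, and G2 and M phase genes lowest at 0.64 and 0.72.

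The remaining higher genes belonged to none of these signalling lists. Rasl11a, a small GTPase of the RAS family (chromosome 5, 146845071 to 146847726, plus strand), had 68 UMIs in 43 members, 40 in depth-matched cells and 36 in the lowest cells. Its ratio was 3.78 (2.49 to 5.84) to the lowest cells and 3.41 (2.27 to 5.17) to the depth-matched cells. Bhlhe40, a repressor linked to the circadian clock, stood at 3.14 (1.81 to 5.54) and 1.76 (1.09 to 2.82) to the same sets. Enc1, Selm, Zfp462 and Tspan7 had ratios of 2.24 to 2.81 to the lowest cells, and none of them passed against the depth-matched cells.

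Outside the G2 and M list, 6 further genes fell. Prr11, known from cell cycle progression, had 7 UMIs in members and 60 in the lowest cells, a ratio of 0.23 (0.09 to 0.51). Slc38a1, a glutamine transporter, had 10 and 62 UMIs, a ratio of 0.32 (0.15 to 0.63), and Eif4ebp1, a repressor of cap-dependent translation, had 65 and 258, a ratio of 0.50 (0.38 to 0.66). The others were Fam64a, Dpf2 and Hn1l, at ratios of 0.27 to 0.37.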

How the data were processed

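The 2 labelled Drop-seq samples of LIF-grown neurospheres are pooled in 1 table, whose values are, per the file headers and the values themselves, the deposited whole-number UMI counts for 19144 genes in 4000 barcodes (17591915 UMIs), with no normalization. Genome build mm10 was used, per the submitters' processing notes, whereas for aligner, counter and barcode choice the sources used here give none. Barcodes map to neither sample, so no test was run and depth limits the precision of every value. No doublets were removed, and 18 members and 26 lowest cells had barcodes ending in an unread base.

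Cells were filtered and ranked as described above, thinned to 2000 UMIs (hypergeometric draw, seed 1), and summed. Levels are counts per 1000000 UMIs (CPM) without the 5 rule genes. Intervals are exact (Poisson for levels, conditional binomial for ratios, Clopper-Pearson for shares; 95%). Where members had UMIs and the comparison cells 0, a floor of 3 UMIs was used. The procedure was tested on simulated data, with all cells of a set drawn from 1 profile. That test therefore held no spread between cells beyond counting error. Work was done in scipy 1.17.1 and numpy 2.4.6 under Python 3.11.15, with matplotlib 3.10.9 and pandas 2.3.3. Gene positions are from GENCODE M21 and promoters from RefSeq.

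Named genes are any of the 31 gene lists (601 entries, 543 in the table), the 15 highest and 15 lowest ratios past the limit, and the 6 genes most like the share; Spry2, Id3, Apoe and the lower genes of the lists enter through their lists. The members and lists were chosen with earlier results of these data known. Alternatives covered thinning, the choice of members and comparison cells, filters, rule genes, barcodes, scaling and thresholds.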

Additional observations from a re-analysis of the deposited data

How the results depend on the processing

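The other immediate early genes kept a ratio above 1 in all 23 alternatives that were run, between 1.36 and 1.81, and S, G2 and M phase genes together kept one below 1 in all 21, between 0.66 and 0.89. In this order the 2 ratios were 1.52 and 0.67 with the rule applied after thinning, and 1.36 and 0.68 with members chosen on a random 50% of the UMIs and measured on the other 50%. They were 1.41 and 0.89 against all other cells, 1.52 and 0.85 with ties broken at random, and 1.53 and 0.86 against depth-matched cells. They were 1.81 and 0.67 with 100 members, 1.501 and 0.74 with 500, 1.55 and 0.80 with a UMI minimum of 3000, and 1.54 and 0.66 with a rule without Egr1. The cell cycle ratio was 0.79 without cells above the 95th percentile of UMIs, 0.73 with a rule without Junb and 0.72 without Ier2. With cells of at most 10 G2 and M phase UMIs the early genes stood at 1.51 and, with depth matching, at 1.47.

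The count of higher genes was 18 as reported, 40 without thinning, 10 with the rule after thinning, 4 for the 50% split, 11 against depth-matched cells and 10 at a UMI minimum of 3000. It was 4 at a fold of 2, 279 by the ratio without its interval, 10 at a count minimum of 100, 45 with no minimum, and 10 or 4 in cells of few G2 and M phase UMIs. The count of lower genes was 15 as reported, 9 against all other cells, 5 with random ties, 23 without Egr1 in the rule, 2 at a fold of 2, 257 by the ratio alone, 9 at a count minimum of 100, and 1 or 3 in cells of few G2 and M phase UMIs. In the 50% split Dusp6 and Klf10 were the higher genes shared with the 18. Arc and Klf10 had intervals above 1.5 in 23 of 23 alternatives, a count that leaves aside the minimum of 50 UMIs. With that minimum Arc was not called in some alternatives, among them the 50% split, 100 members and cells of few G2 and M phase UMIs.

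Directions turned for the S phase genes, at 0.92 with the rule after thinning, 0.97 in the 50% split, 0.95 with 100 members and 0.87 without Egr1 in the rule. They also turned for antioxidant genes with the rule after thinning (1.01) and for growth factor receptor genes against depth-matched cells (0.94, and 0.97 in cells of few G2 and M phase UMIs). In cells of few G2 and M phase UMIs with depth matching, Bnip3 stood at 0.96 and Fam64a at 1.16. In the 50% split Etv1 stood at 0.86 and Hes1 at 0.85, and Slc38a1 stood at 1.002 with the rule after thinning. The cause of these changes was not tested.

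No paired analysis was possible because barcodes map to neither labelled sample and both samples belong to 1 group. All values come from 1 pooled sample, so the spread between cultures is unknown. The members rest on 3 to 32 rule UMIs a cell, and the gene calls on sums of few UMIs.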
